A study of Mus musculus with 3 samples.

Results

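The 14-3-3 proteins are encoded by 7 genes in the mouse, and their transcripts were followed in area CA1 of the hippocampus on 3 replicate oligonucleotide arrays. The members were Ywhab, Ywhae, Ywhag, Ywhah, Ywhaq and Ywhaz, together called the brain isoforms here, and Sfn, the epithelial isoform. A probe set, the group of short probes that gives 1 signal, was taken when the platform annotation mapped it to exactly 1 gene and that gene was a member. All 7 members had a probe set. They had 10 between them, of 12488 on the array, and the named probe sets of the series covered 8251 genes. The RNA came from young male C57BL/6J mice, an inbred strain with no transgene named in the labels. Each mouse was given 3 foot shocks of 1 s at 0.5 mA, each after 2 min in a new context, and went back to its home cage 1 min after the last. Total RNA was taken at 6 h. The 3 arrays form 1 group, without unconditioned animals, so nothing below is an effect of training. The labels do not tell whether an array held 1 animal or a pool, and the spread between arrays may be partly technical.

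The 14-3-3 proteins are small acidic adaptors that work as dimers. Each subunit has a groove that binds a phosphorylated serine or threonine in a client protein, and binding can hide a localisation signal, block an enzyme site or hold the client in the cytoplasm. They are among the abundant soluble proteins of brain, where several isoforms are expressed side by side and can form mixed dimers. Sfn, also called stratifin or 14-3-3 sigma, is best known from stratified epithelia, where p53 induces it, and it favours dimers with itself.

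Every brain isoform gave at least 1 probe set above threshold on all 3 arrays, and Sfn was under threshold on all 3. The threshold was 174.8, the median of all deposited signals. By gene, taken at the brightest probe set, 6 of 7 members were above it on every array, beside 52.9% of all named genes. By probe set the count was 7 of 10, beside 43.9% of all probe sets. Signals of different probe sets depend on their probes as well as on the transcript, so they are set against the threshold and the array controls and are not read as relative amounts of the isoforms.

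Ywhag, the gamma isoform, which is enriched in neurons, gave signals of 15939, 14058 and 19578 on arrays 1, 2 and 3 with probe set 95716_at (16525 ± 2807, mean ± SD, n = 3 arrays). Ywhaz, the zeta isoform and a widely expressed adaptor for Raf kinases, gave 9517, 17684 and 15433 with 97544_at (14211 ± 4218). Ywhaq, the theta isoform, called tau in T cells, gave 11183, 9579 and 12551 with 97061_g_at (11105 ± 1487). These 3 probe sets lay at or above the 98.9th percentile of all probe sets on every array. Ywhah, the eta isoform, also prominent in neurons, gave 4553, 6532 and 6247 with 97535_at (5777 ± 1069.7), between the 97.2nd and the 98.2nd percentile. Ywhab, the beta isoform and another Raf adaptor, gave 1539, 1390.0 and 1565 with 98053_at (1498 ± 94.5). It was the steadiest member, with a coefficient of variation of 6.31%. Ywhae, the epsilon isoform, whose human counterpart lies in the region deleted in Miller-Dieker lissencephaly, gave 357, 680.3 and 608.5 with its only probe set, 160485_r_at (549 ± 169.7). Array 1 was the low one there, and all 3 signals were above threshold. When only probe sets with names ending in a plain _at were kept, Ywhae had none.

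Sfn was dim on every array and fell within the range of the array's background controls on arrays 1 and 2. Its probe set 96704_at gave 41.1, 21.3 and 57.0 on arrays 1, 2 and 3 (39.8 ± 17.9), at the 23.0th, 12.6th and 27.6th percentile. Background was read from 15 control probe sets for bacterial transcripts, whose medians were 13.5, 33.1 and 17.6 and whose highest signals were 54.1, 115 and 55.6. The Sfn signal exceeded 13, 6 and 15 of these 15 controls on arrays 1, 2 and 3, so on array 3 it lay just above the highest of them. Being under threshold on every array was common, at 34.7% of named genes. A signal this low does not show that the transcript was absent: Camk2a, which encodes a kinase abundant in CA1 pyramidal neurons and was picked as an example after its value was seen, gave 44.9, 35.4 and 38.1.

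**Figure D1:**
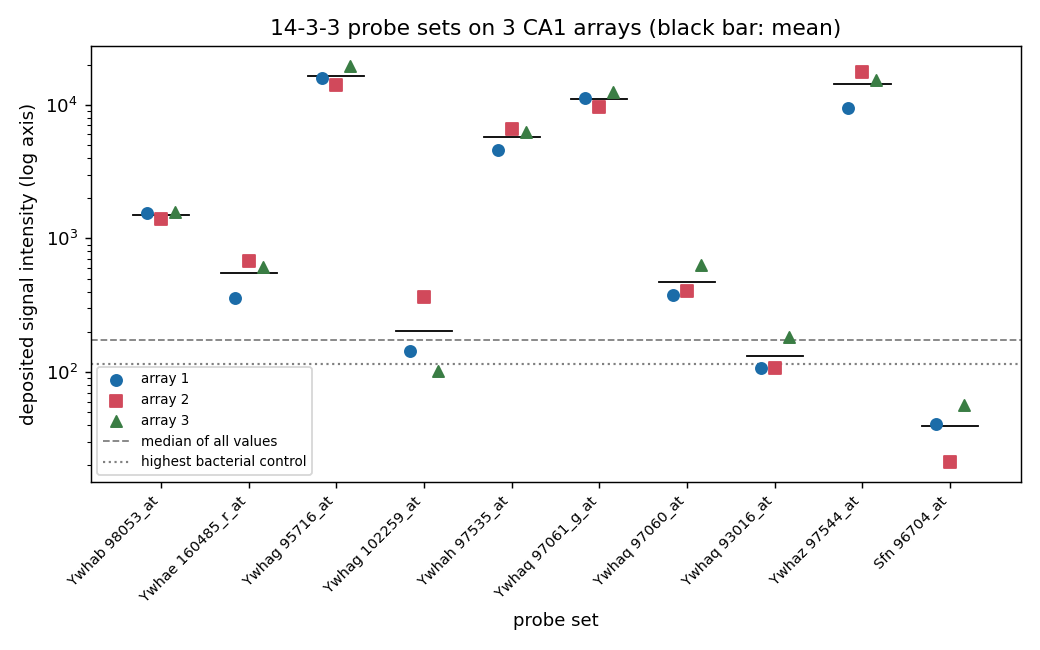
Deposited signal of the 10 probe sets on a log axis, with 1 point per array and a black bar at the mean of 3 arrays; the dashed line is the median of all values (174.8) and the dotted line the highest bacterial control on any array (115). All 7 probe sets that pass on every array belong to brain isoforms, the dimmer probe sets of Ywhag and Ywhaq (102259_at and 93016_at) straddle the dashed line, and the Sfn points, from 21.3 to 57.0, lie under both lines.

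The promoters of the brain isoforms and of Sfn also differed in base composition. RefSeq windows of 250 bases before to 50 bases after the annotated start (GRCm38.p6) were matched for 5 members, Ywhae, Ywhag, Ywhah, Ywhaq and Sfn. The 4 brain isoforms held 36, 23, 38 and 30 CpG dinucleotides in the 300 bases, in that order, and Sfn held 4. The median over all 32851 windows was 7. The ratio of observed to expected CpG was 0.95, 0.89, 1.03 and 0.97 for the brain isoforms and 0.19 for Sfn. The windows of Ywhah (chr5:33018566-33018865, plus strand), Ywhag (chr5:135934592-135934891, minus strand) and Sfn (chr4:133602119-133602418, minus strand) are printed 5′ to 3′ to show this contrast and the motifs described next. Capitals mark a MEF2 and a CRE motif in Ywhah, the core of a CRE in Ywhag and each CpG in Sfn.
Ywhah: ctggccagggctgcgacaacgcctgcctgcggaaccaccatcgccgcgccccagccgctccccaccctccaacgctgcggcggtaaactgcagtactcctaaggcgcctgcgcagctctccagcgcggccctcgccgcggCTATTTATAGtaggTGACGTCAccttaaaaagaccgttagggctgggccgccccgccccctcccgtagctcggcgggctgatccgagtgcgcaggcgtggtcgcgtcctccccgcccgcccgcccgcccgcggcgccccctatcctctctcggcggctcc
Ywhag: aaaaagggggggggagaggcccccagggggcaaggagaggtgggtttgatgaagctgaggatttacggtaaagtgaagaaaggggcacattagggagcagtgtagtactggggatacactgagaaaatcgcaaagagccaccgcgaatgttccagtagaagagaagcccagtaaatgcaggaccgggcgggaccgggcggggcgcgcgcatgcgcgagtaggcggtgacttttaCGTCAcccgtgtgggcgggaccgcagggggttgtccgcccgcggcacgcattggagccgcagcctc
Sfn: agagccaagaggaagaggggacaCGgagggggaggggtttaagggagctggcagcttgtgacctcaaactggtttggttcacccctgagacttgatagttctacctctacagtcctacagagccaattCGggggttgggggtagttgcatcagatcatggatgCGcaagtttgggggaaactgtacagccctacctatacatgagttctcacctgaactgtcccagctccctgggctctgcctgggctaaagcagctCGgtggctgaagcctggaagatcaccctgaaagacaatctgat

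The cyclic AMP response element, CRE, is the binding site of CREB, a factor with a known role in memory, and MEF2 factors are activity-regulated in neurons. Both strands were searched, and the motifs were chosen after the windows had been read. The full CRE (TGACGTCA) was present in Ywhah, with its first base 96 bases before the start (position -96), and in none of the other 4 windows, and 1.79% of all windows hold it. A match to the MEF2 consensus lay just upstream at -110, and 0.56% of all windows hold one. Ywhah was the single window of the 32851 with both. The CRE core (TGACG or its complement CGTCA) occurred in Ywhag at -16 and, overlapping within the full motif, in Ywhah at -96 and -93, against 20.8% of all windows. GC boxes (GGGCGG) numbered 6 in Ywhah, 4 in Ywhag and 2 in Ywhae, some overlapping, and 0 in Ywhaq and Sfn, beside 35.7% of windows with at least 1. A CCAAT motif was found in Ywhag, Ywhaq and Sfn, and in 37.4% of windows. The TATAAA motif was found only in Ywhah among the 5, reversed and inside the MEF2 match, and in 13.6% of windows. These are matches of letters, and no binding was measured.

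The members' CpG ratios were then placed among those of other genes on the array. Named genes with 1 RefSeq window were put into 5 bins of equal size by the observed to expected CpG ratio, a split chosen after the members' ratios were seen. In the lowest bin, which held Sfn and reached a ratio of 0.33, 19.4% of 1054 genes were above threshold on all arrays. In the fourth bin, which held Ywhag, the share was 65.3% of 1053, and in the highest, which held Ywhae, Ywhah and Ywhaq, 67.1% of 1054. This is a description across genes, which share the same 3 arrays.

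The members were next compared between arrays, after the arrays had been scaled to a common median. A probe set counts as measured when its mean signal was above threshold, which held for 8 of the 10 and for 50.1% of all probe sets. None of the 8 passed the limma variance test, which asks whether a signal differed between the arrays by more than is usual at its brightness, and in which 0.0161% of the 6218 measured probe sets passed. At an unadjusted p under 0.05 there was 1 member, Ywhaz, beside 5.21% of all measured probe sets. The median of highest minus lowest log2 signal was 0.65 over the 8 members and 0.48 over all measured probe sets. Without Ywhag 102259_at, which counted as measured through array 2 alone, the member median was 0.53. With array 1, 2 or 3 left out, the member median was 0.33, 0.50 and 0.37, beside 0.34, 0.23 and 0.31 over all measured probe sets. These member medians rest on 8, 7 and 8 probe sets, since Ywhag 102259_at dropped out only without array 2. That probe set was also the only measured member probe set with arrays more than 2-fold apart, beside 12.1% of all.

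The brightest probe sets of the brain isoforms followed 2 orders across the arrays. Ywhaz, Ywhae and Ywhah were lowest on array 1 and highest on array 2. For Ywhaz the highest and lowest scaled signals were 1.85-fold apart, a log2 range of 0.89 (limma variance test, unadjusted p = 0.039, adjusted p = 0.90, with adjusted values from 0.29 to 1.00 over the alternatives). For Ywhae they were 1.90-fold apart, with a log2 range of 0.92 (limma, adjusted p = 0.97, from 0.68 to 1.00), and for Ywhah 1.43-fold apart, with a log2 range of 0.51 (limma, adjusted p = 0.99, from 0.89 to 1.00). Arrays 2 and 3 were close in all 3 genes, and without array 1 the log2 ranges were 0.15, 0.11 and 0.01. Ywhab, Ywhag and Ywhaq were instead lowest on array 2 and highest on array 3, with log2 ranges of 0.22, 0.53 and 0.44, and for them the limma adjusted p was 0.99. These orders were the same with no scaling, after quantile normalization and after cyclic loess. Array 1 was the lowest for 4 of the 8 measured member probe sets, against 29.3% of all measured probe sets, array 2 for 3, against 42.3%, and array 3 for 1, against 28.4%. The 1 lowest on array 3 was Ywhag 102259_at, which counted as measured through array 2 alone, so nothing is read from its place in this count.

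Ratios between isoforms come from the same values, so they restate this split and are no separate support for it. The log2 ratio of a pair from the same order moved by 0.071 to 0.41 over the 3 arrays, and that of a pair from different orders by 0.67 to 1.15. The steadiest was the ratio of Ywhae to Ywhaz, at 0.071, followed by Ywhag to Ywhaq at 0.13 and Ywhab to Ywhaq at 0.22. Ywhah was less close to its partners, at 0.41 with Ywhae and 0.37 with Ywhaz. The ratio of Ywhae to Ywhaq moved most, by 1.15. Other genes were counted within a fixed root mean square log2 difference of 0.1, a limit not set by the closeness of these pairs. Of 4875 other measured genes, 38 came within it of Ywhaz, 35 of Ywhae and 219 of Ywhah. It was 514 for Ywhag with 95716_at, 669 for Ywhaq with 97061_g_at and 860 for Ywhab. The count was highest for Ywhab, with the smallest log2 range (0.22), and lowest for Ywhae, with the largest of these (0.92). The grouping was read from these values, so it has no test.

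**Figure D2:**
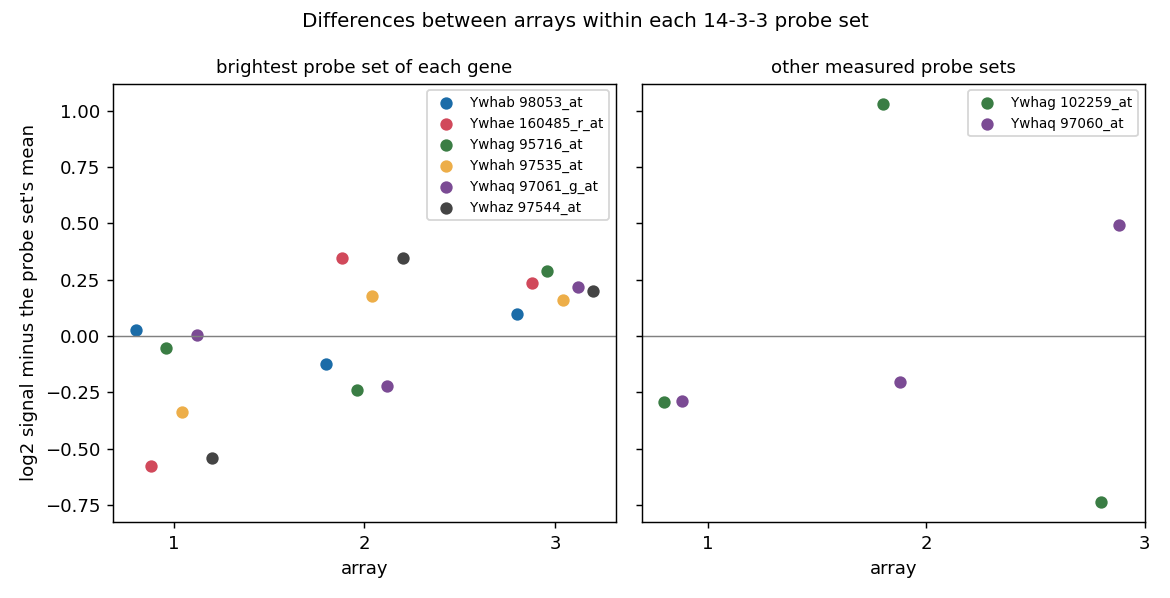
Log2 signal of each measured member probe set on each array, minus that probe set's mean over the 3 arrays; points of 1 colour belong to 1 gene, with the brightest probe set of each gene on the left and the other measured ones on the right. On the left, Ywhaz, Ywhae and Ywhah are low on array 1, whereas Ywhab, Ywhag and Ywhaq are lowest on array 2; on the right, Ywhag 102259_at is high on array 2, where 95716_at of the same gene is low.

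Probe sets of the same gene did not always share an order. The second probe set of Ywhag, 102259_at, gave 144, 361 and 102 (202 ± 139), above threshold on array 2 alone. It was highest on the array where 95716_at was lowest. Its scaled signals were 3.41-fold apart, a log2 range of 1.77. It counted as measured through array 2 alone, where it was high, so nothing is read from its rank or its test among measured probe sets. The second probe set of Ywhaq, 97060_at, gave 378, 401 and 629 (469 ± 139), and the third, 93016_at, gave 107, 107 and 184 (133 ± 44.2). Both were highest on array 3, as was 97061_g_at, and 97061_g_at alone was lower on array 2 than on array 1. The third Ywhaq probe set was above threshold on array 3 alone, and its signal exceeded 15, 14 and 15 of the 15 bacterial controls.

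The genes whose pattern lay nearest to that of Ywhag 102259_at, the member probe set with the largest log2 range, were Igfbp2, Lgi4 and Josd2. Their root mean square log2 differences from it were 0.058, 0.059 and 0.068 over the 3 arrays. Igfbp2, which is also on the list of meningeal markers used below, encodes a growth factor binding protein and gave 386, 1002 and 258. Only 4 of 4875 genes came within 0.1. Since the high signal on array 2 is what made this probe set count as measured, the likeness is a description only.

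**Figure D3:**
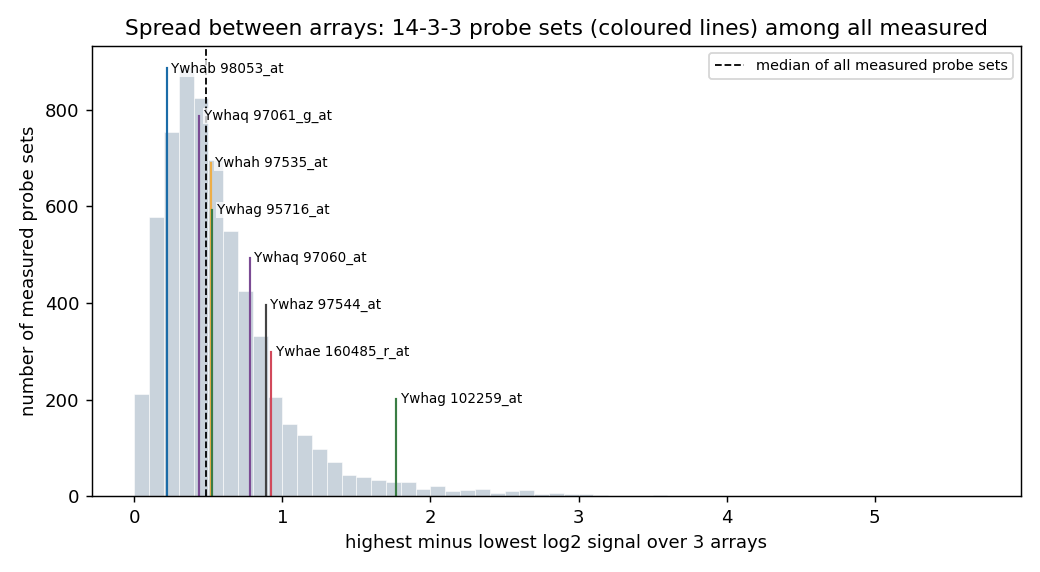
Histogram of the highest minus lowest log2 signal over 3 arrays for the 6218 measured probe sets, with the 8 measured member probe sets as coloured lines (line height has no meaning) and the median of all, 0.48, dashed. Ywhab has the smallest range of the members, at 0.22, and Ywhag 102259_at the largest, at 1.77.

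Other properties of the arrays moved as well. The ratio of 3′ to 5′ signal, which falls when transcripts are copied to their full length, was 3.99, 1.21 and 3.94 for Gapdh and 2.57, 1.86 and 3.50 for Actb on arrays 1, 2 and 3. Marker lists were read at the brightest probe set, and 52.9% of all named genes passed on all arrays, to be set beside each count. Neuron markers were above threshold on all arrays for 7 of 8 genes, with summed signals from 36408 to 38809. Astrocyte markers passed for 4 of 4 (sums 12985 to 15651), oligodendrocyte markers for 4 of 4 (21062 to 22396) and microglial markers for 4 of 4 (3178 to 3713). Choroid plexus and ependyma markers passed for 2 of 5 (2233 on array 3 to 7525 on array 2). Meningeal markers passed for 4 of 5 (7473 on array 3 to 12492 on array 1) and vessel markers for 1 of 4 (597 to 905). Such sums weigh the brightest genes most, and the next genes were named after their values were seen. Ttr, of the choroid plexus list, gave 1333.5, 4256.7 and 94.2 and passed the limma variance test (adjusted p = 0.049). Ptgds, of the meningeal list, gave 8808, 4634.5 and 4726, whereas Igfbp2 alone on that list was highest on array 2. The part of these array properties and markers in the members' differences between arrays was not tested. In tissue RNA, fewer cells of a type and less RNA per cell cannot be told apart.

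Genes that act with 14-3-3 proteins were read from lists, with each gene at its brightest probe set. Of 10 represented kinase genes whose products phosphorylate docking sites, 8 passed the threshold on every array, beside 52.9% of all named genes. The survival kinase gene Akt1 gave 737, 1450.2 and 683, highest on array 2, its relative Akt2 gave 594.5, 855 and 470.5, and Sgk1, which glucocorticoids induce, gave 1858, 1081 and 1192, highest on array 1. Both genes under threshold encode calmodulin-dependent kinases, Camk2a and Camk4. They do not stand for that kinase family. Of its genes off the list, named after their values were seen, Camk2b had a mean of 8840 and passed on every array, and Camk2d had a mean of 5.53. Phosphatase genes, whose products can remove the docking phosphate, passed for 7 of 7, beside the same 52.9%. The protein phosphatase 1 subunit genes Ppp1cb and Ppp1cc gave 1382 ± 269 and 1301 ± 85.7, the protein phosphatase 2A subunit gene Ppp2ca 432 ± 59.0, and the calcineurin gene Ppp3ca, with the widest range of this list, 9787, 8421 and 13124. In both lists 0 genes passed the limma variance test, beside 0.0161% of all measured probe sets. At an unadjusted p under 0.05 there was 1 kinase gene, Akt1, and 0 phosphatase genes, beside 5.21% of all measured probe sets.

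Client genes passed about as often as genes in general. Among 32 that the array represents, 17 passed the threshold on every array, 5 on some and 10 on none, a share of 53.1% that is near the 52.9% of all named genes. The Raf kinase genes Braf and Araf were under threshold, at 63.3 ± 24.0 and 35.7 ± 8.31. Ksr1, the gene of a scaffold for Raf and MEK that 14-3-3 proteins bind, gave 272, 591 and 102, high on array 2 and under threshold on array 3. Its log2 range of 2.48 was the widest of the list. Mapt, which encodes the microtubule protein tau, gave 9457, 4001 and 10886, low on array 2, and the transcriptional coactivator gene Wwtr1 gave 329, 301 and 78.4. These 3 genes, the last 2 named after their values were seen, had an unadjusted p under 0.05, beside 5.21% of all measured probe sets, and 0 of the 19 measured clients passed the limma test adjusted over all probe sets (adjusted p = 0.67 for Ksr1, 0.56 for Mapt and 0.90 for Wwtr1).

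The epithelial list, linked to Sfn, was mostly dim, with exceptions. On it 6 of 16 represented genes passed the threshold on every array and 10 on none. Among all named genes 52.9% passed on every array and 34.7% on none. The basal keratin genes Krt5 and Krt14 gave 85.7 ± 6.21 and 22.2 ± 6.28, and Krt8, a keratin of simple epithelia, gave 39.5 ± 20.8. Cdh1, the E-cadherin gene, had the widest range of those that passed, at 195, 489 and 205, highest on array 2. The others that passed were Krt10, Krt1, Krt6a, Ppl and Lor, named after their values were seen, with means from 285 to 440.3. Of the p53 list, also linked to Sfn, 2 of 5 represented genes passed on every array, beside 52.9% of all named genes. Another 2 passed on some arrays and 1 on none, the last beside 34.7% of all named genes. Cdkn1a, a cell cycle inhibitor gene that p53 induces, gave 299, 99.5 and 165, above threshold on array 1 alone. Mdm2, which encodes the ligase that degrades p53, gave 327 ± 27.4, and the stress gene Gadd45a gave 169, 37.5 and 198. Of the 6 epithelial and 3 p53 genes that were measured, 0 passed the limma variance test, beside 0.0161% of all measured probe sets. At an unadjusted p under 0.05 there were also 0, beside 5.21% of all measured probe sets. With so few genes measured, these counts are not read as results about the lists.

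**Figure D4:**
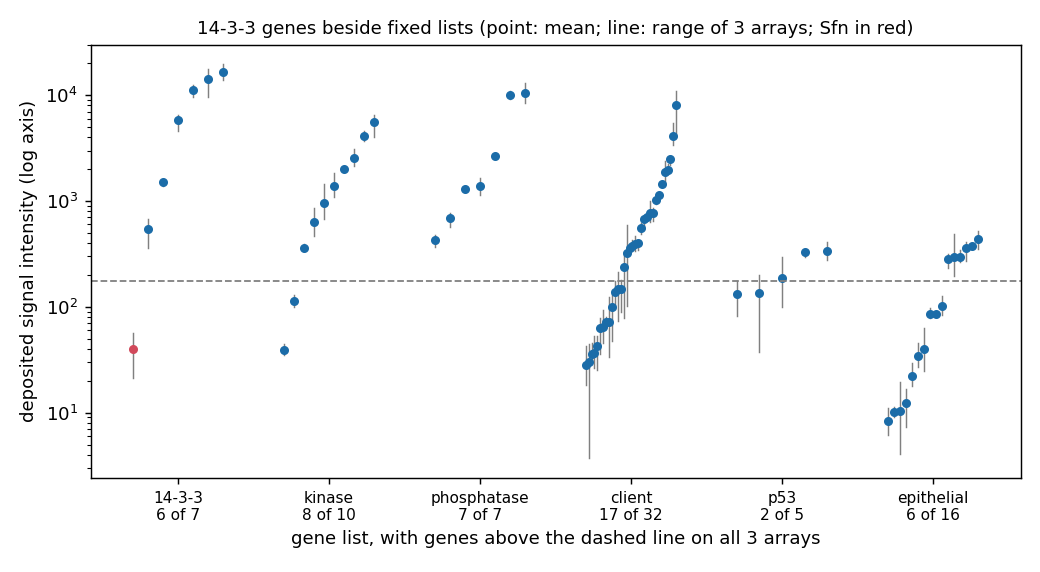
Mean signal (points) and range over 3 arrays (grey lines) of each gene at its brightest probe set, on a log axis, for the 14-3-3 genes and the 5 lists; Sfn is red and the dashed line is the threshold, 174.8. The axis labels give the genes above the line on all arrays, from 7 of 7 phosphatase genes to 6 of 16 epithelial genes. Sfn is drawn in the 14-3-3 column, under the line.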

How the data were processed

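Signals were measured in CA1 RNA on 3 arrays of 1 group. The authors deposited a linear signal intensity per probe set and array, already near a common scale (trimmed means of 500.3). Program, background correction and scaling method are not given in the labels or headers used here. Of 12488 probe sets 66 were controls, 10833 had 1 gene symbol, 396 several and 1193 none. Symbols were checked through Entrez identifiers against the GRCm38.p6 gene table, and 0 changed.

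Deposited signals are given as levels. For the spread, arrays were scaled to a common median over measured probe sets, floored at 47.5, the 25th percentile of all values, and log2-transformed. The variance test (limma 3.58.1, R 4.3.3) set each variance against a robust intensity-dependent prior, with Benjamini-Hochberg adjustment over 6218 measured probe sets and a threshold of 0.05. It was tested on simulated data. Replicate p-values measure only the spread between these arrays, whose number limits precision.

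Members and lists were chosen with earlier results of these data known. Named are all member probe sets, the first 3 genes of each list with a probe set, its widest measured gene and genes nearest to the widest member. Further genes were named after their values were seen. Promoter windows are RefSeq's. 14 alternatives were tried. No column belonged to other samples (0).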

Additional observations from a re-analysis of the deposited data

How the results depend on the processing

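Under all 14 alternatives 0 member probe sets passed the limma variance test. At an unadjusted p under 0.05 the count was 1 in the main setting. The number above threshold on all arrays was 7 and ran from 5 to 9, and Sfn did not pass at the lower threshold of 47.5 either. The number was 9 at the lower threshold, and 5 at the higher one and with plain _at probe sets only. The share of all probe sets is not given for these settings, so this range is not read as a result about the members. The count of all measured probe sets past the test was 1, and it was 0 after quantile normalization, cyclic loess, the higher threshold, no threshold, the prior that was not robust and averaging the probe sets of a gene, and 6 at the lower threshold. Leaving out 1 array gave from 0 to 56. The median log2 shift of the members on array 1, that array minus the mean of the other 2, was -0.44, and -0.085 at the higher threshold. On array 2 it was 0.04, and 0.40 when probe sets of a gene were averaged. The 0.04 includes the second Ywhag probe set, whose shift was 1.55 and which counted as measured through array 2 alone. The median was -0.21 at the lower threshold, -0.13 at the higher and -0.17 with no threshold. It stayed positive under the other scalings, the other floors and plain _at probe sets only, from 0.03 to 0.11. Leaving out 1 array gave from -0.10 to 0.30. The sign on array 2 was therefore not settled, and nothing is read from it. On array 3 the median shift was 0.31 and stayed positive, from 0.10 to 0.50. Client genes above threshold fell from 17 to 11 at the higher threshold. Epithelial genes fell from 6 to 0 there, and to 3 with averaged probe sets. A higher threshold can only lower such counts, and the share of all named genes at it is not given here, so these falls are not read as results about the lists. The cause of the other differences was not tested. No paired analysis was possible because the samples form 1 group.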
